A study of Mus musculus with 20 samples.

Results

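The genes described here encode the channels, pumps and sensors of the intracellular calcium store. Of 10 genes listed (Ryr1, Ryr2, Ryr3, Itpr1, Itpr2, Itpr3, Atp2a2, Atp2a3, Stim1 and Stim2), 6 were found by symbol in the deposited comparison tables, out of 44674 genes in the count table: Ryr2, Ryr3, Itpr1, Atp2a2, Stim1 and Stim2. The other 4 are in neither comparison table, and their counts were read from the count table by gene identifier. The list was drawn up because Ryr3 was lower in the ribosome pulldown of mice without the insulin receptor in tanycytes. Values of that contrast are therefore given as a description, with no test.

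The endoplasmic reticulum stores calcium at a much higher concentration than the cytosol. SERCA pumps (Atp2a2, Atp2a3) load the store, and channels of 2 families empty it: ryanodine receptors (Ryr1, Ryr2, Ryr3), which open on a rise in cytosolic calcium, and inositol trisphosphate receptors (Itpr1, Itpr2, Itpr3), which also need the messenger that phospholipase C makes. Stim1 and Stim2 sense the calcium level inside the store and, when it falls, open Orai channels in the plasma membrane so that the store is refilled. Tanycytes, the elongated glia that line the floor and lower walls of the third ventricle, are known to respond to extracellular ATP with a rise in intracellular calcium.

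The 6 release channels form 2 families that share a pore. The coding stretch of the selectivity filter is shown because it is the part all of them have in common and because it shows how far the paralogues can be told apart in short reads. Each stretch is 36 bases of the longest GENCODE transcript (GRCm38), written from 5′ to 3′ in the direction of the gene, with the 6 filter codons in capitals.
Ryr1: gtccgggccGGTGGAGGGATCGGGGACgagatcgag
Ryr2: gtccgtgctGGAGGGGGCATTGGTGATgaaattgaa
Ryr3: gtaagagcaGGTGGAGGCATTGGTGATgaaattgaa
Itpr1: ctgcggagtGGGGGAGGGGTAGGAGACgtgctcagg
Itpr2: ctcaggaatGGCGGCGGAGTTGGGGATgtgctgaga
Itpr3: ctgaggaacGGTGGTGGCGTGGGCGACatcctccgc

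The Ryr3 stretch lies in exon 100 of 104 (chr2:112636622-112636657, minus strand) and that of Ryr2 in exon 101 of 105 (chr13:11560618-11560653, minus strand). That of Itpr1 lies in exon 58 of 62 (chr6:108518779-108518814, plus strand). Ryr2 and Ryr3 differed at 6 of the 36 bases, 2 of them within the capitals, and Ryr3 and Itpr1 at 20. Over their annotated transcripts Ryr2 and Ryr3 had 0 words of 31 bases in common. The largest number of shared words between any 2 of the 10 genes was 14, between Atp2a2 and Atp2a3. The genes differ in length: the longest transcript measures 16.8 kb for Ryr2, 15.5 kb for Ryr3 and 9.87 kb for Itpr1, against 4.49 kb for Atp2a2, 4.36 kb for Stim1 and 4.93 kb for Stim2.

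The libraries came from translating ribosome affinity purification (TRAP), a pulldown of ribosomes by a GFP tag on their L10a subunit (immunoprecipitation, IP), and from the RNA of the lysate itself (input). The groups were normal chow diet (NCD)-fed controls in 3 pools, NCD-fed IRΔTan mice (labelled IRdelTan), which lack the insulin receptor in tanycytes, in 3 pools, and high-fat diet (HFD)-fed controls in 4 pools, 20 libraries in all. Every mouse carried the Cre-dependent L10-EGFP allele of Rosa26 (tg/wt) and received a Cre virus driven by a Dio2 promoter in the lateral ventricle at 12 weeks of age, and mediobasal hypothalamus was taken 4 weeks later. IRΔTan mice were IR fl/fl. The series' design text gives the controls as IR wt/wt, whereas their sample labels read IRmKate2. The HFD was fed from about 4 weeks of age, and the duration given differs between sources. A pool held 5 to 7 mice of both sexes, or 4 to 7 hypothalami according to the methods of the study. The Dio2 promoter directs Cre to tanycytes, and the ribosome tag is made in every cell that Cre reaches. The share of IP RNA that came from untagged cells was not measured.

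Libraries held 29469000 to 59385000 estimated counts, rounded to 5 digits. Depth differed by diet in the IPs, at 29469000 to 34715000 in HFD and 42868000 to 48626000 in control NCD, without overlap. Insr, the targeted gene, had 10.0 to 15.6 CPM (counts relative to the library total, scaled by TMM over all libraries) in the 3 IRΔTan IPs and 37.5 to 40.3 CPM in the 3 control NCD IPs, in the direction the labels give. Tanycyte markers (10 genes, among them Rax and Lhx2) summed to 1039 to 1321 CPM in control NCD IPs, 1109 to 1321 CPM in IRΔTan IPs and 363 to 930 CPM in HFD IPs, against 71.0 to 99.9 CPM in the inputs. Ependymal markers (6 genes, among them Foxj1) were likewise higher in the IPs, at 280 to 911 CPM against 13.5 to 26.2 CPM in the inputs. The paper reported no reporter signal in ependymal cells, and the source of these transcripts was not tested. Endothelial and mural markers (6 genes) summed to 27.3 to 150 CPM in the IPs and 8.25 to 13.2 CPM in the inputs. Of the 4 tested, 2 were called higher in control NCD IPs than in inputs, and the other 2 had values below 0. Neuronal markers (11 genes, among them Rbfox3 and Map2) summed to 3776 to 7898 CPM in the IPs and 10478 to 11739 CPM in the inputs. No marker of these lists was at 0 throughout a group. In such bulk samples, fewer cells of a type and less RNA per cell cannot be told apart.

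Per kilobase of transcript, the pump Atp2a2 was the most abundant member in every group and fraction, followed by Itpr1. In control NCD IPs Atp2a2 stood at 63.7 ± 4.00 (SD, n = 3) CPM per kb and Itpr1 at 7.32 ± 0.224 (SD, n = 3) CPM per kb, with no overlap between them. Stim1 followed at 4.78 ± 0.315 (SD, n = 3) CPM per kb, Stim2 at 3.94 ± 0.625 (SD, n = 3), Ryr2 at 2.78 ± 1.03 (SD, n = 3) and Ryr3 at 2.05 ± 0.625 (SD, n = 3), and each of these neighbours overlapped with the next in that order. Itpr2 was lower, at 0.922 ± 0.189 (SD, n = 3) CPM per kb, and did not overlap with Ryr3. The remaining genes were scarce in all 20 libraries. Ryr1, the channel of skeletal muscle, ranged from 0.202 to 1.89 CPM (8 to 98 counts), Itpr3 from 0.0982 to 1.01 CPM (5 to 38 counts) and Atp2a3 from 0.0394 to 0.881 CPM (2 to 34 counts). Their values are shown with those of the other members in the plot of CPM by library.

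**Figure D1:**
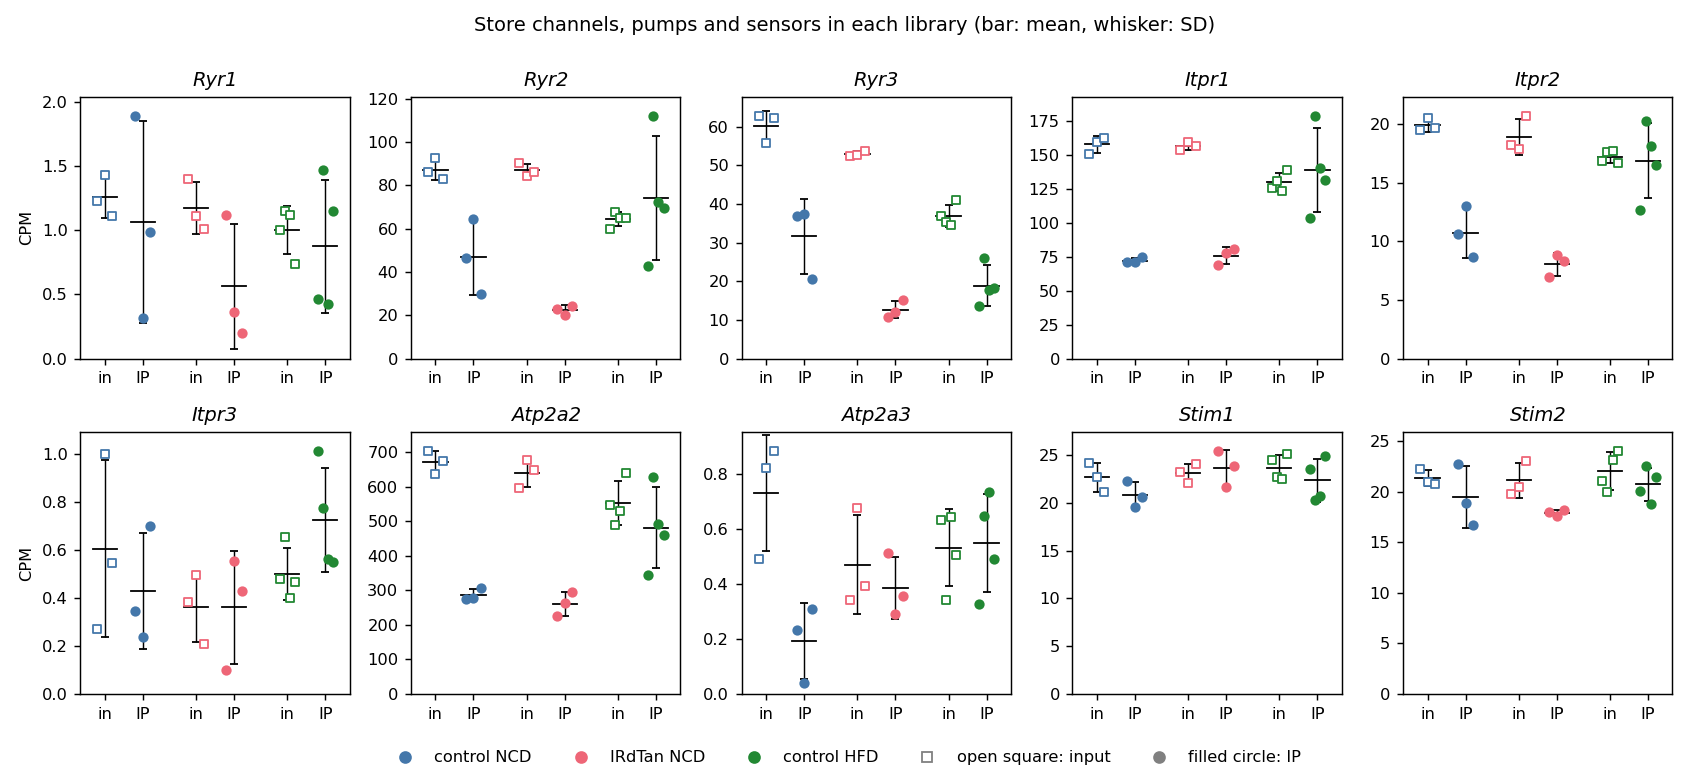
CPM of the 10 genes in each of the 20 libraries (y axis, linear from 0), by group and by fraction (in, input; IP, ribosome pulldown); points are pools, bars group means and whiskers SD. Ryr3 lies at 10.8 to 15.1 CPM in the 3 IRΔTan IPs (IRdTan in the plot) against 20.5 to 37.5 CPM in the control NCD IPs, and Stim1 stays between 19.6 and 25.4 CPM in all libraries.

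Both abundant ryanodine receptors were lower in the pulldown of IRΔTan mice than in that of control NCD mice, and the other abundant members differed little. Ryr3 had 10.8, 12.1 and 15.1 CPM in the 3 IRΔTan IPs and 37.0, 37.5 and 20.5 CPM in the control NCD IPs. The groups did not overlap, and the third control pool lay closest to the IRΔTan pools. The log2 fold change of Ryr3 was -1.35 (SE 0.19), a 2.54-fold lower level. It ranged from -1.58 to -1.21 when any 1 pool was left out. Ryr2, the ryanodine receptor of the heart and also the main one of brain, had 22.7, 20.0 and 24.3 CPM in IRΔTan IPs and 46.3, 64.4 and 29.7 CPM in control NCD IPs. Its log2 fold change was -1.09 (SE 0.19), and -1.33 to -0.79 with 1 pool left out. These 2 genes were the members whose groups did not overlap, and 5.45% of all 13518 genes tested were lower in that sense. By the test, 0.0814% of all genes tested were called lower in this contrast and 0.0148% higher. The list was chosen on this contrast, so its counts are not read against those shares.

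The inositol trisphosphate receptor Itpr1 had 68.7 to 81.1 CPM in IRΔTan IPs and 70.9 to 74.8 CPM in control NCD IPs, a log2 fold change of 0.05 (SE 0.07). Atp2a2 stood at -0.15 (SE 0.09), Stim1 at 0.16 (SE 0.09) and Stim2 at -0.14 (SE 0.11) on the same scale, all with overlapping groups. Itpr2, fitted among all genes of the count table, was at -0.42 (SE 0.15), again with overlap. Some markers of other cells moved with the ryanodine receptors. All 6 oligodendrocyte markers (Mbp and Mog among them) had log2 fold changes below 0 (median -0.57), with summed levels of 388 to 497 CPM in IRΔTan IPs and 428 to 805 CPM in control NCD IPs. All 5 tested microglia markers of 6 (Csf1r and Tmem119 among them) were also below 0 (median -0.88), with medians of 9.90 CPM in IRΔTan IPs and 18.8 CPM in control NCD IPs over all 6, and no overlap. No marker of either list was at 0 throughout a group. The neuronal markers summed to 4018 to 4566 CPM against 3776 to 4437 CPM, with a median of 0.05. Astrocyte markers had 3 values above 0 and 3 below (median 0.00). Of 4 tested endothelial and mural markers, 3 were above 0 (median 0.24). The part of these cells in the Ryr2 and Ryr3 values was not tested.

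In the inputs the difference was small. Ryr3 had 52.4, 52.7 and 53.8 CPM in IRΔTan inputs and 62.8, 55.9 and 62.3 CPM in control NCD inputs, which did not overlap, as did 5.13% of all genes tested in the same direction. Its log2 fold change of -0.20 (SE 0.18, 95% interval -0.59 to 0.18, adjusted p = 1.00) did not pass the test. Ryr2 stood at 84.2 to 90.3 CPM and 83.0 to 92.4 CPM, respectively. None of the 6 members was called, nor was any of the 13518 genes tested (0% called), with 189 genes at an unadjusted p under 0.05 and 3 called by DESeq2.

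On HFD, store genes moved in both directions in the pulldown of control mice. Itpr1, Atp2a2 and Ryr2 rose, Ryr3 fell, and Stim1 and Stim2 did not pass the test. Thus 3 of 6 members were called higher and 1 lower, where 26.3% of all 13568 genes tested were called higher and 25.8% lower. This comparison uses the same 3 control NCD IPs as the contrast that chose the list. For Ryr3, the 1 member called lower, the test is not independent of that choice.

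Itpr1, the main inositol trisphosphate receptor of neurons, had 104, 179, 141 and 132 CPM in the 4 HFD IPs and 70.9, 70.9 and 74.8 CPM in the 3 NCD IPs. Every HFD pool lay above every NCD pool. The log2 fold change was 0.99 (SE 0.14, adjusted p = 5.1e-05), a 1.98-fold higher level. Atp2a2, the pump that most cells use to load the store, had 344, 628, 492 and 459 CPM on HFD and 274, 277 and 307 CPM on NCD, also without overlap. Its log2 fold change was 0.79 (SE 0.16, adjusted p = 8.1e-04). Such a separation upwards was seen for 21.2% of all genes tested.

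Ryr2 had 42.9, 112, 72.3 and 69.4 CPM in HFD IPs, and the lowest HFD pool lay below 2 of the 3 NCD pools. The log2 fold change was 0.70 (SE 0.26, adjusted p = 0.036). The call was lost when control NCD pool 1 or 3 or HFD pool 2, 3 or 4 was left out, with values of 0.43 (without HFD pool 2) to 0.73 and adjusted p of 0.06 to 0.18. Ryr3 went the other way, with 13.6, 26.1, 17.7 and 18.2 CPM in HFD IPs against 37.0, 37.5 and 20.5 CPM in NCD IPs. The groups overlapped through control NCD pool 3 and HFD pool 2. The log2 fold change was -0.71 (SE 0.21, adjusted p = 0.01). Without control NCD pool 1 it was -0.58 (adjusted p = 0.063) and without pool 2 it was -0.56 (adjusted p = 0.066). In a fit of the IPs alone neither gene passed the threshold, with 0.72 (adjusted p = 0.10) for Ryr2 and -0.68 (adjusted p = 0.054) for Ryr3.

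Because all libraries carry both genes and they are of similar length, the ratio of Ryr3 to Ryr2 within a library needs no scaling between libraries. It was 0.317, 0.234, 0.244 and 0.262 in the 4 HFD IPs and 0.798, 0.582 and 0.690 in the 3 NCD IPs. In the HFD inputs, taken from the same lysates, it was 0.524 to 0.632. IRΔTan IPs had 0.475 to 0.621 and IRΔTan inputs 0.581 to 0.626, so the low ratio set the HFD IPs apart from every other library. The ratio was chosen after its values were seen and was not tested.

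**Figure D2:**
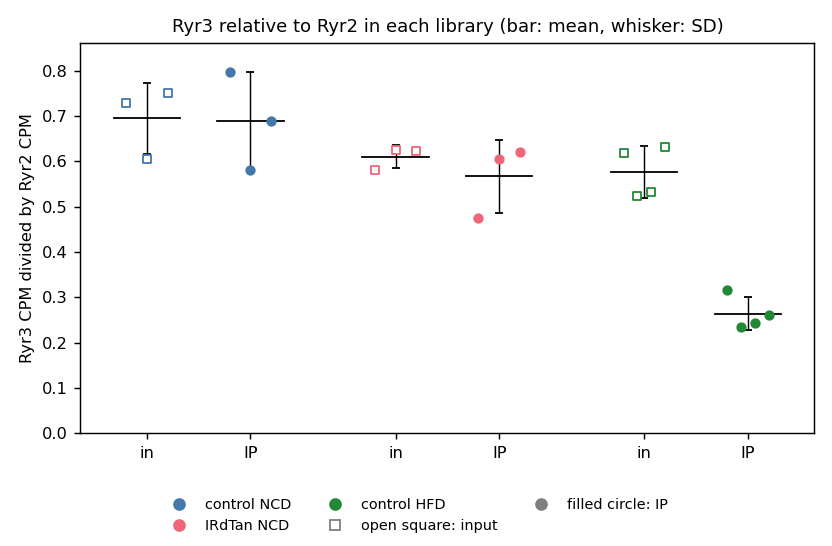
Ryr3 CPM divided by Ryr2 CPM (y axis, a ratio without unit, linear from 0) in each of the 20 libraries by group and fraction (in, input; IP, ribosome pulldown); points are pools, bars group means and whiskers SD. The 4 HFD IPs lie between 0.234 and 0.317 and all other libraries between 0.475 and 0.798.

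The store sensors did not pass the test. Stim1 had 20.3 to 24.9 CPM in HFD IPs and 19.6 to 22.3 CPM in NCD IPs, and its log2 fold change was 0.14 (SE 0.09, 95% interval -0.06 to 0.33, adjusted p = 0.22). Stim2 had 18.8 to 22.6 CPM and 16.7 to 22.8 CPM, with 0.13 (SE 0.11, 95% interval -0.10 to 0.36, adjusted p = 0.34). Of the 4 genes outside the comparison tables, fitted among all 19589 genes of the count table that passed the filter, Itpr2 rose from 10.8 ± 2.21 (SD, n = 3) to 16.9 ± 3.20 (SD, n = 4) CPM, with 0.76 as the log2 fold change (SE 0.15, adjusted p = 9.6e-04). Atp2a3, the pump known from blood and epithelial cells, was called higher at 1.61 (SE 0.53, adjusted p = 0.024), with 2 to 15 counts in the NCD IPs and 12 to 26 in the HFD IPs. Its call was lost without control NCD pool 2 (adjusted p = 0.078) and without HFD pool 2 or 3 (adjusted p = 0.065 and 0.079). In that fit 23.2% of genes were called higher and 18.6% lower. Ryr1 and Itpr3 did not pass, with log2 fold changes of -0.16 (SE 0.50) and 0.87 (SE 0.47).

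The inputs showed another pattern. Ryr3 was the 1 member of 6 called, and it was lower on HFD, where 4.22% of all genes tested were called lower and 7.13% higher. It had 37.0, 35.4, 34.6 and 41.0 CPM in HFD inputs and 62.8, 55.9 and 62.3 CPM in NCD inputs, without overlap. The log2 fold change was -0.75 (SE 0.20, adjusted p = 0.029). The call was lost without control NCD pool 1 or 2 or HFD pool 3 or 4, at adjusted p of 0.056 to 0.10, while the value stayed between -0.80 and -0.71.

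Ryr2 and Itpr1 were also lower in every HFD input than in every NCD input, at 59.7 to 67.5 against 83.0 to 92.4 CPM and 124 to 139 against 151 to 163 CPM. Such a separation downwards was seen for 15.4% of genes tested, and here for 3 of 6 members with Ryr3. Ryr2 stood at -0.48 (SE 0.26, adjusted p = 0.25), Itpr1 at -0.32 (SE 0.13, adjusted p = 0.13) and Atp2a2 at -0.32 (SE 0.15, adjusted p = 0.20), none past the threshold. In a fit of the inputs alone all 3 passed it (adjusted p = 1.5e-04, 0.0018 and 0.019), so that 4 of 6 members were called lower there. That fit called more genes in general, with 1915 of all 13346 genes tested lower and 2246 higher. Stim1 had 22.5 to 25.1 CPM in HFD inputs and 21.2 to 24.2 CPM in NCD inputs, and Stim2 20.0 to 24.0 and 20.8 to 22.3 CPM, with log2 fold changes of 0.02 (SE 0.09) and 0.01 (SE 0.11).

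Whether diet acted differently in IP and input was tested with an interaction term, by which 21.3% of all genes tested were called higher in the IP and 18.8% lower. Itpr1, Ryr2 and Atp2a2, 3 of 6 members, were called higher. The difference between the diet effects was 1.31 (SE 0.19, adjusted p = 2.3e-04) for Itpr1, 1.18 (SE 0.37, adjusted p = 0.019) for Ryr2 and 1.11 (SE 0.22, adjusted p = 0.0013) for Atp2a2 on the log2 scale. Among the genes outside the comparison tables Itpr2 (1.00, SE 0.21, adjusted p = 0.0024) and Atp2a3 (2.09, SE 0.72, adjusted p = 0.038) were called as well, as were 18.1% of all genes of the count table in the same direction. The call of Ryr2 was lost without control NCD pool 1 (adjusted p = 0.059) or 3 (adjusted p = 0.063). That of Atp2a3 was lost without control NCD pool 2 or HFD pool 2, 3 or 4, at adjusted p of 0.076 to 0.13. For Ryr3 the difference was 0.04 (SE 0.29, 95% interval -0.58 to 0.66, adjusted p = 0.92). The interval leaves room for a difference in either direction, and with the transcript length trend removed the value was -0.76 (adjusted p = 0.012), a larger fall in the IP. The interaction uses the same control NCD IPs as the contrast that chose the list, so for Ryr3 it is not independent of that choice.

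Neuronal markers moved with Itpr1, Atp2a2 and Ryr2. All 11 rose in HFD IPs (median log2 fold change 0.82), from summed levels of 3776 to 4437 CPM on NCD to 6074 to 7898 CPM on HFD, and none was at 0 throughout a group. Map2 rose from 435 ± 35.1 (SD, n = 3) to 801 ± 18.4 (SD, n = 4) CPM and Rbfox3, which encodes NeuN, from 69.1 ± 6.52 (SD, n = 3) to 98.3 ± 13.8 (SD, n = 4) CPM. Of 10 tanycyte markers, 6 were called lower and none higher (median -0.71). Over all genes tested, 25.8% were called lower and 26.3% higher. Lhx2, a transcription factor of tanycytes, fell, while Rax, at -0.39 (SE 0.34), did not pass the test. All 6 ependymal markers fell (median -0.82), from 662 to 779 CPM in sum to 280 to 490 CPM, as did Foxj1. Of the oligodendrocyte markers 3 of 6 were called higher and of the microglia markers 3 of 5, with none lower (medians 0.66 and 0.80). Their summed levels were 594 to 1411 against 428 to 805 CPM for the former and 27.9 to 47.4 against 18.8 (median) CPM for the latter. In the inputs none of the 11 neuronal markers was called, and their median was -0.05. The part of these cells in the members' values was not tested.

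Transcript length also moved with the diet contrast, as the plot of fold change by transcript length shows. In HFD IPs the median log2 fold change of all tested genes went from -0.58 for transcripts under 1 kb to 0.47 for the 321 genes of at least 10 kb, and in HFD inputs from 0.35 to -0.17. Ryr2, at 0.70, was thus near the middle of the long genes, of which 67.0% had a lower value. Ryr3, at -0.71, lay below 316 of the other long genes in the IP and below 318 in the input. When a smooth trend with transcript length was taken out of every library, Ryr2 went to 0.05 (SE 0.19, adjusted p = 0.83) in the IP and its call was lost. Ryr3 went to -1.30 (SE 0.15, adjusted p = 1.3e-05) in the IP and -0.54 (SE 0.14, adjusted p = 0.028) in the input. Its IP values, the rank among long genes included, rest on control NCD IPs that also served to choose the list. They are not independent of that choice. Itpr1 (0.55, SE 0.08) and Atp2a2 (0.63, SE 0.14) remained called, and Itpr2 (0.24, adjusted p = 0.10) did not. Under that setting the interaction was called lower for Ryr3 (-0.76, SE 0.21) and still called higher for Itpr1 (0.73) and Atp2a2 (0.92). The interaction calls of Ryr2 (0.31, adjusted p = 0.40), Itpr2 (0.32, adjusted p = 0.17) and Atp2a3 (1.82, adjusted p = 0.074) were lost.

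**Figure D3:**
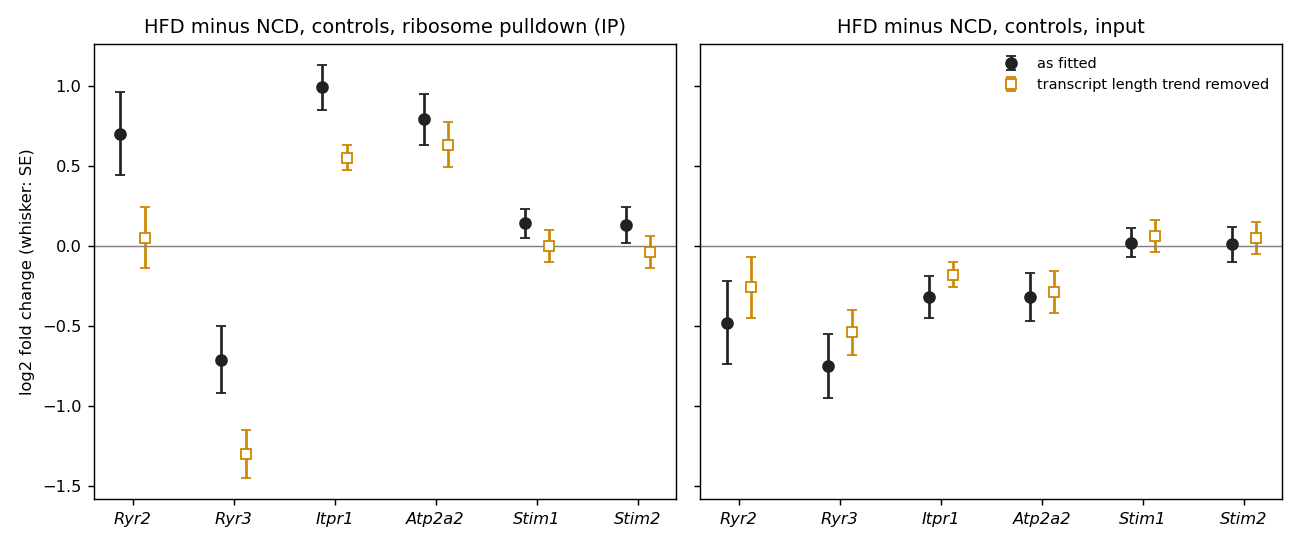
Log2 fold change of HFD against NCD controls (y axis, whiskers SE) for 6 members in the ribosome pulldown (left) and the input (right), as fitted (filled circles) and with the transcript length trend removed (open squares). Ryr3 lies below 0 in both panels under both settings, and Ryr2 in the pulldown moves from 0.70 to 0.05.

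**Figure D4:**
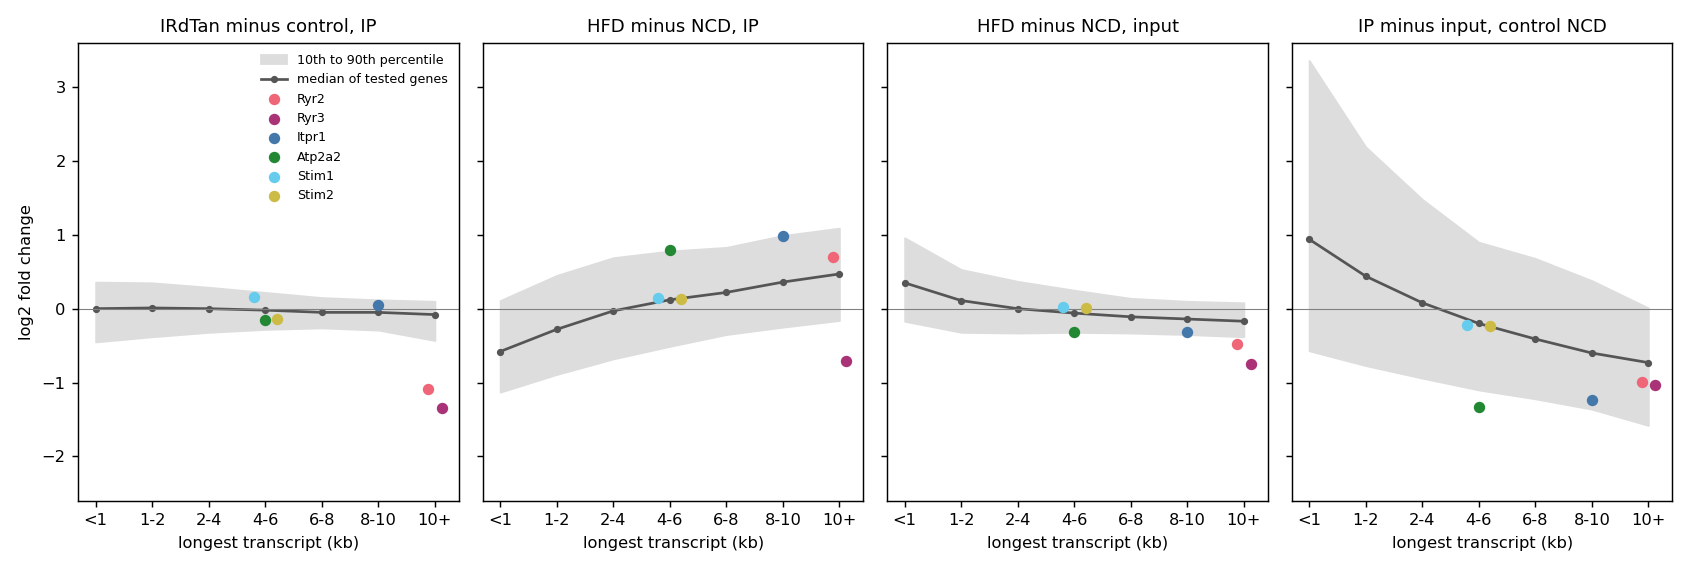
Log2 fold change (y axis) by length of the longest transcript in kb (x axis, 7 bins) in 4 comparisons (IRΔTan is written IRdTan); the line is the median of all tested genes, the band their 10th to 90th percentile, and coloured points are the 6 members in their bins. In HFD IPs the median rises from -0.58 to 0.47 with length while Ryr3 sits at -0.71. Ryr2 and Ryr3 lie under the band of the longest genes in the IRΔTan contrast, on which the list was chosen.

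In the contrast of IRΔTan with control IPs the trend was slight, from a median of 0.00 under 1 kb to -0.08 at 10 kb or more. Of the 315 genes of at least 10 kb, 313 had a higher value than Ryr3 and 312 a higher value than Ryr2. The list was chosen on this contrast because Ryr3 fell in it, so these ranks are only a description. With the trend removed the values were -1.18 (SE 0.16) for Ryr3 and -0.90 (SE 0.18) for Ryr2.

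Pulldown was then set against input within each group. In control NCD mice 4 of 6 members were depleted from the IP and none was enriched, where 32.8% of all genes tested were called lower and 36.0% higher. Atp2a2 had 702, 637 and 675 CPM in the inputs and 274, 277 and 307 CPM in the IPs, which differ by -1.33 on the log2 scale (SE 0.17, adjusted p = 5.9e-06). Itpr1 (-1.23, SE 0.14), Ryr3 (-1.03, SE 0.22) and Ryr2 (-0.99, SE 0.28) were lower by similar amounts, with adjusted p of 2.8e-06, 7.4e-04 and 0.0052. These control NCD IPs also served in the contrast that chose the list. Itpr2 (-0.99, SE 0.16) and Atp2a3 (-2.02, SE 0.56) were also called lower among all genes of the count table, of which 33.8% were called lower. Stim1 (-0.22, SE 0.10, adjusted p = 0.057) and Stim2 (-0.23, SE 0.12, adjusted p = 0.086) lay near the threshold. Stim1 passed it under 7 alternatives (adjusted p of 0.023 to 0.048), among them DESeq2, no expression filter and the pool as a block. Stim2 passed it without control NCD pool 1 (-0.34, adjusted p = 0.028) and with all 20 libraries in the fit (-0.25, adjusted p = 0.048). With the length trend removed, 2 members stayed called, Atp2a2 (-1.15) and Itpr1 (-0.58), while Ryr2 (-0.03) and Ryr3 (-0.12) did not. Itpr2 lost its call as well (-0.27, adjusted p = 0.06).

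In HFD controls only Ryr3 remained depleted of the 6 members, and none was called higher, against 23.1% of all genes called lower and 31.6% higher. It had 13.6 to 26.1 CPM in the IPs and 34.6 to 41.0 CPM in the inputs, or -0.99 on the log2 scale (SE 0.19, adjusted p = 5.7e-04), and -0.88 (SE 0.14, adjusted p = 7.5e-05) without the length trend. Ryr2 stood at 0.19 (SE 0.24), Itpr1 at 0.08 (SE 0.12), Atp2a2 at -0.22 (SE 0.14), Stim1 at -0.11 (SE 0.08) and Stim2 at -0.11 (SE 0.10). None of these 5 passed the test. Without HFD pool 2, the highest of the HFD IPs for Ryr2, Itpr1 and Atp2a2, the value of Atp2a2 was -0.44 and was called lower (adjusted p = 0.0081). In IRΔTan mice, given as a description, Ryr3 (-2.19, SE 0.19) and Ryr2 (-2.09, SE 0.20) lay further below their inputs than in either control group, at 10.8 to 15.1 against 52.4 to 53.8 CPM for Ryr3. Atp2a2 (-1.42, SE 0.09) and Itpr1 (-1.18, SE 0.07) were close to their values in control NCD mice. Stim2 was at -0.36 (SE 0.11) and Stim1 at -0.09 (SE 0.09). Background shares for that contrast were 32.8% lower and 34.3% higher.

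**Figure D5:**
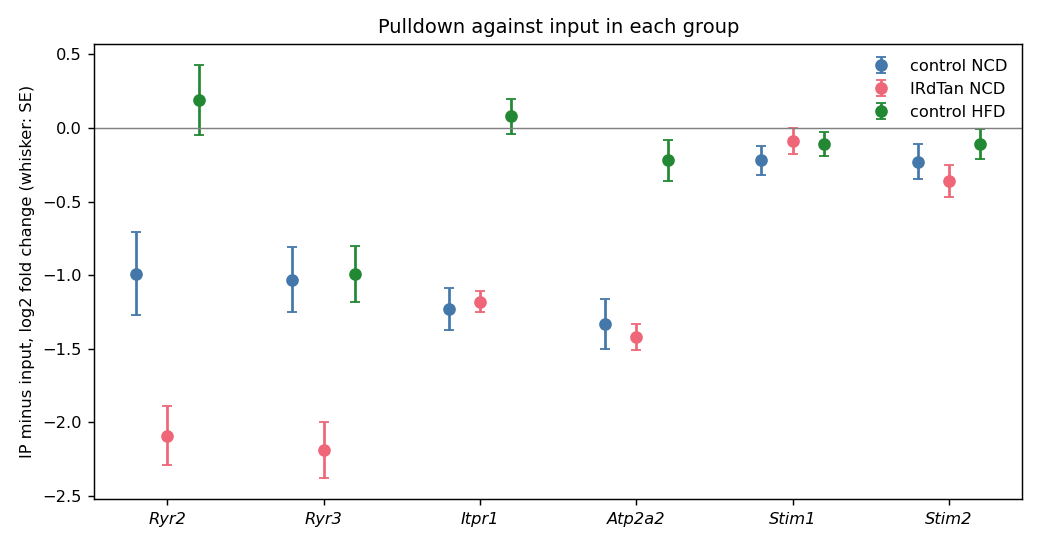
Log2 fold change of IP against input (y axis, whiskers SE) for 6 members in each of the 3 groups, from edgeR. Ryr3 is below 0 in all groups (-1.03, -2.19 and -0.99), whereas Ryr2, Itpr1 and Atp2a2 are near 0 in HFD controls.

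The other genes of the store pathway were counted from 7 lists of 99 genes, of which 88 were tested in the diet comparison. In HFD IPs 29 of the 88 were called higher and 23 lower (33.0% and 26.1%), near the 26.3% and 25.8% of all genes tested, with a median log2 fold change of 0.14 against -0.03 for all genes tested. These are the IPs in which all 11 neuronal markers rose (median 0.82). In them 6 of 10 tanycyte markers and all 6 ependymal markers were called lower (medians -0.71 and -0.82). Transcripts of at least 10 kb were higher and those under 1 kb lower (medians 0.47 and -0.58). The part of these shifts in the counts of the lists was not tested. Pumps, exchangers and regulators had 8 of 12 called higher and 1 lower (median 0.58). Atp2b3, a calcium pump of the plasma membrane, rose from 33.4 ± 5.00 (SD, n = 3) to 73.1 ± 18.3 (SD, n = 4) CPM, a log2 fold change of 1.17 (SE 0.16). The sodium-calcium exchangers Slc8a2 (0.75, SE 0.12) and Slc8a3 (0.54, SE 0.10) rose too.

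Among store buffers and folding proteins 7 of 12 were called higher and 2 lower (median 0.34). For this list and the next, the shares over all genes tested were 26.3% higher and 25.8% lower. Hspa5, the chaperone BiP, rose from 142 ± 11.1 (SD, n = 3) to 274 ± 61.0 (SD, n = 4) CPM (log2 fold change 0.98, SE 0.15), and the lectin chaperone Canx (0.58, SE 0.11) and the calcium-binding Nucb1 (0.43, SE 0.09) rose less. Of 16 genes that supply or remove inositol trisphosphate, 3 were called higher and 1 lower (median 0.15). These included the phospholipases Plcb4, at 151 ± 27.0 (SD, n = 3) and 373 ± 94.1 (SD, n = 4) CPM (1.34, SE 0.17), and Plcb1 (1.20, SE 0.16), and the G protein subunit Gnaq (0.33, SE 0.08).

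The list of leak and other store genes, which holds regulators as well, went the other way, with 5 of 8 called lower and none higher (median -0.37). Of all genes tested 25.8% were called lower and 26.3% higher. Bcl2, which binds inositol trisphosphate receptors, fell from 238 ± 12.2 (SD, n = 3) to 127 ± 20.7 (SD, n = 4) CPM (log2 fold change -0.87, SE 0.10), and Tmbim6 (-0.52, SE 0.12) and Tmco1 (-0.39, SE 0.10) fell as well. Of 21 partners of the release channels 8 were called lower and 5 higher (median 0.04). Sri, which encodes sorcin, an inhibitor of ryanodine receptors, fell from 88.2 ± 7.61 (SD, n = 3) to 46.2 ± 7.13 (SD, n = 4) CPM (-0.90, SE 0.10), and S100a1, which binds ryanodine receptors, fell as well (-1.02, SE 0.13). Jph3, a junctophilin that ties the store to the plasma membrane, rose (0.42, SE 0.09). Store-operated entry was divided, with 3 of 11 called higher and 2 lower (median -0.08). The plasma membrane channel Orai3 fell from 45.3 ± 3.38 (SD, n = 3) to 24.3 ± 5.19 (SD, n = 4) CPM (-0.87, SE 0.13), and Septin4 (1.27, SE 0.20) and Trpc1 (0.48, SE 0.11) rose. For mitochondrial calcium uptake 3 of 8 were called higher and 4 lower (median -0.07), such as the exchanger Letm1 (0.85, SE 0.09) and the uniporter subunit Smdt1 (-0.89, SE 0.12). Vdac1, a channel of the outer membrane, rose (0.60, SE 0.09). The genes named here as falling, except Tmco1 (-0.57), were higher in control NCD IPs than in inputs, from 0.39 (Tmbim6) to 2.67 (S100a1). Of those named as rising, Septin4 (-1.73), Trpc1 (-1.01), Letm1 (-0.49) and Jph3 (-0.36) were lower there, and Vdac1 (-0.02) was not called. The part of this in their diet values was not tested.

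In the inputs 7 of the 88 were called higher and 4 lower on HFD (7.95% and 4.55%, median -0.06), close to the shares of all genes. Vdac1 (0.58, SE 0.09), Jph3 (0.42, SE 0.09) and Slc8a2 (0.43, SE 0.12) rose there as in the IP, and Tmco1 fell (-0.46, SE 0.10). S100a1 rose in the input (0.61, SE 0.14) and fell in the IP. All tested genes under 1 kb had medians of 0.35 in HFD inputs and -0.58 in HFD IPs. The part of transcript length in these values was not tested. In the inputs of IRΔTan against control mice none of 87 tested pathway genes was called, as was none of all genes tested there (189 at an unadjusted p under 0.05, 3 by DESeq2). In the IPs of that contrast their median log2 fold change was -0.02, against -0.01 for all genes.

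Across the 20 libraries, the genes whose log2 CPM followed that of Ryr3 most closely, of 8835 with at least 10 CPM on average, were Abhd18 (Pearson r 0.974), Smg1 (0.955), Phtf2 (0.949), Stard9 (0.944) and Bcl2l2 (0.94). The libraries fall into inputs and IPs, so this likeness is a description that mixes the difference between fractions with that between groups. They were picked over the same libraries in which Ryr3 was chosen for its fall, so nothing is read from their direction in those contrasts. Their longest transcripts ranged from 3.81 to 15.6 kb. Among the members, r with Ryr3 was 0.768 for Ryr2, 0.744 for Atp2a2, 0.603 for Itpr1, 0.593 for Stim2 and -0.056 for Stim1.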

How the data were processed

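Estimated counts per gene of 20 libraries (10 pools, IP and input) were analysed. The authors processed reads with nf-core rnaseq 1.4 and deposited the expected counts from Salmon 0.14.1 on GRCm38; the submitters' processing notes also name STAR and DESeq2 1.30.0. Reads were made after preamplification, without molecular identifiers. The authors also deposited, per comparison, a log2 fold change and an adjusted p-value from DESeq2 restricted to protein-coding genes that reached a TPM of 1; those values were not used, only the gene identifiers and symbols.

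Counts, of which 28.0% were not whole, were rounded and tested with edgeR 4.0.16 (quasi-likelihood test, TMM scaling, expression filter with a minimum count of 10) in R 4.3.3, on the 2 groups compared in both fractions, over genes of the deposited table (13518 and 13568 tested). Ryr1, Itpr2, Itpr3 and Atp2a3 came from a fit on the full count table (20038 and 19589 genes tested). P values were adjusted by Benjamini–Hochberg with a threshold of 0.05. Total counts were 29469000 to 59385000 per library; genes with few counts have larger standard errors. The tests were tried on simulated counts.

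Groups and pool numbers came from the sample labels, which give no batch. The IP and input of a pool come from 1 lysate. Their deviations from group means correlated at 0.017 to 0.322, over 0.1 in 9 of 10 pools. In IRΔTan pool 1 and HFD pools 2 and 4 the IP correlated better with the input of another pool of its group. Across groups the numbers are only names. Whether mice of a pool shared a litter is not given in the sources used here. Lengths and sequences are from GENCODE M21 (GRCm38), to which 44118 of the 44674 identifiers matched. CPM correlations used a pseudocount of 0.5.

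The members and gene lists were chosen with earlier results of these data known. The genes named were the members, up to 3 genes per pathway list with the smallest p in the diet comparison of IPs, the first 2 markers per cell type list, Insr, and the 5 genes most like Ryr3. For 2 of 160 list entries (Itprip and Strit1) no identifier was matched. The endothelial and mural markers and the astrocyte markers were also examined: in HFD IPs 1 of 4 tested endothelial and mural markers was called lower and 1 of 6 astrocyte markers higher. Alternatives were median-ratio size factors, library totals, DESeq2 1.42.0, no expression filter, all genes, only the fraction compared, all 20 libraries, blocks for pool number or pool, each pool left out, and removal of a smooth transcript length trend.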

Additional observations from a re-analysis of the deposited data

Results flagged for a closer look

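For 5 members the effect of HFD differed between pulldown and input by the test of the difference itself, on the log2 scale. The difference was 1.31 for Itpr1, 1.18 for Ryr2 and 1.11 for Atp2a2. It was 1.00 for Itpr2 and 2.09 for Atp2a3, the latter from few counts. With the transcript length trend removed the calls of Ryr2 (0.31, adjusted p = 0.40), Itpr2 (0.32, adjusted p = 0.17) and Atp2a3 (1.82, adjusted p = 0.074) were lost, and those of Itpr1 (0.73) and Atp2a2 (0.92) were kept. All 5 were higher in HFD than in NCD IPs and lower in HFD than in NCD inputs by their fitted values. Of the 20 groups of 4 HFD libraries examined for a library far from the others (10 genes in IP and input), none had one by Dixon's criterion, where chance would give about 1 in 20.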

How the results depend on the processing

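Of the values recomputed for the members over 61 results, 761 stayed as they were, meaning that a tested value kept its direction and side of the threshold, an untested value moved by less than the spread between replicates, and a count stayed within 1.5 times; 25 changed sign, 34 lost and 16 gained a call, and 30 moved otherwise. Falls of Ryr3 and rises of Itpr1 and Atp2a2 in HFD IPs kept their direction in every alternative run. The cause of the changes was not tested.

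With library totals the median of all genes in IP against input went from 0.03 to 0.39 in NCD controls, from 0.06 to 0.52 in HFD controls and from 0.01 to 0.31 in IRΔTan mice, and in NCD controls 6948 genes were called higher and 2463 lower (4888 and 4454 with TMM), in HFD controls 8848 and 851 (4286 and 3131) and in IRΔTan mice 6382 and 2764 (4635 and 4428). Then Stim1 was at 0.13 and Stim2 at 0.12 in NCD, and Atp2a2 at 0.24, Stim1 at 0.36 and Stim2 at 0.36 in HFD, all above 0 and below that median, and 4 of 6 members were called higher in HFD; Ryr3 in IRΔTan was -1.89. In HFD against NCD inputs library totals gave 478 higher and 829 lower (967 and 572 with TMM) with 2 members lower, Stim1 -0.04 and Stim2 -0.06; for the interaction 3471 and 1562 (2889 and 2550). Stim2 in these inputs was 0.00, below 0 before rounding, with median-ratio factors, with DESeq2 and with all 20 libraries.

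With the fraction compared fitted alone, 0 members were lower in HFD IPs and 4 lower in HFD inputs (2246 genes higher and 1915 lower), and in IRΔTan IPs 0 genes were higher and 2 lower (2 and 11 with both fractions in the fit; 94 and 146 with DESeq2, 2 and 6 with median-ratio factors). Without the length trend the interaction of Ryr3 was -0.76 (called, the 1 member lower), Stim1 and Stim2 in HFD IPs were 0.00 and -0.04, 2 members were lower in NCD IP against input, and Ryr3 in IRΔTan was -1.12.

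With 1 pool left out, the number of members lower was 0 to 1 in HFD IPs, 0 to 1 in HFD inputs and 1 to 2 in HFD IP against input. The log2 values were -0.02 to 0.07 for Stim1 and -0.04 to 0.05 for Stim2 in HFD inputs, -0.22 to 0.24 for the interaction of Ryr3, and, in HFD IP against input, -0.07 to 0.35 for Ryr2 and -0.07 to 0.19 for Itpr1, lowest without HFD pool 2.

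Taking the pool as a replicate block, which pairs IP and input, changed the call of Stim1 in NCD IP against input (-0.22, adjusted p = 0.04) and of the Atp2a3 interaction (2.20, adjusted p = 0.062), and no other call of a member. Blocking on the pool number, which across diets and genotypes is only a number, changed those calls too (adjusted p = 0.023 and 0.051), turned Stim1 and Stim2 in HFD inputs to -0.02 each, and gave 664 higher and 356 lower genes in HFD inputs and 23 and 37 in IRΔTan IPs. The 3 NCD and IRΔTan IPs each correlated best with their own number (0.067 to 0.19), a hint from the data only. Members with few counts (Ryr1, Itpr3, Atp2a3) are limited by depth.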
